A study of Homo sapiens with 4 samples.

Results

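The genes described here encode the extracellular and membrane layer of Wnt signalling, apart from AXIN2, an intracellular feedback inhibitor. That layer holds the secreted ligands, the receptors that bind them, and the inhibitors that hold them back. They were taken by gene symbol, as all WNT, FZD, SFRP1 to SFRP5, DKK1 to DKK4 and LGR4 to LGR6 genes together with FRZB, WIF1, LRP5, LRP6, AXIN2, RNF43 and ZNRF3. The array held 47 such genes among 18417, which were 19 ligands, 10 Frizzled receptors, 2 co-receptors, 3 R-spondin receptors, 2 membrane ubiquitin ligases, 10 secreted inhibitors and AXIN2. The rule names genes and uses no measured value, although it was set with earlier results of these data known. The cells were HCE, labelled as a cell line of undifferentiated cells and studied for the role of KLF7, a zinc finger transcription factor, in the corneal epithelium. All samples received 20 nM siRNA and were collected 48 hours later, 2 with a scramble control pool and 2 with a pool against KLF7 (siKLF7), and RNA of each was hybridised to 1 whole-transcript array.

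Wnt ligands are lipid-modified glycoproteins that bridge a Frizzled receptor and an LRP5 or LRP6 co-receptor. This stabilises beta-catenin and lets it drive TCF and LEF target genes. In branches that act on cell polarity and calcium, ligands engage Frizzled without LRP5 or LRP6. R-spondins, through LGR4 to LGR6, remove the ubiquitin ligases RNF43 and ZNRF3 that clear Frizzled from the membrane. SFRP, FRZB and WIF1 proteins bind ligands, and DKK proteins such as DKK1 act at the co-receptor. In the eye, the pathway is known for its part in corneal fate and in the limbal progenitors that renew the corneal epithelium.

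Levels are given as log2(signal + 16), where the 16 damps dim genes, so a difference understates the change of a gene near that value. Scramble control replicate 1 stood apart from the other 3 arrays. Its correlation with them across all genes was 0.934 to 0.938, against 0.990 to 0.994 among the other 3, and 1 array did not match the others in a check for mixed-up samples. Markers of corneal epithelium showed the same array apart. In it, 7 of 13 measured markers were at least 2-fold below the mean of the other arrays, against 2.99% of all genes. The summed marker signal there was 35371, against 49846 in scramble control replicate 2 and 55483 and 56905 in the siKLF7 arrays. The corneal keratin gene KRT3 had a signal of 0.01 there and of 1440 to 2461 in the other arrays, and KRT12 of 67.7 and of 1570 to 3136. Levels of the other keratin genes on the list varied. KRT15 stood at 8.14 there and 10.06 to 10.97 in the other arrays, and KRT14 at 13.04 and 13.53 to 13.68. KRT19 stood at 11.76 there and 11.05 to 11.68 in the others, and KRT5 lay between 13.53 and 13.73 in all 4. Without that array, 6 of the 13 corneal epithelial markers rose in siKLF7 arrays and 0 fell, while 0.885% of all genes rose and 0.69% fell. Of 15 keratocyte or fibroblast markers, POSTN and THY1 were at least 2-fold higher in that array and S100A4 at least 2-fold lower, and without it POSTN and LUM rose in siKLF7 arrays. The part of these shifts in the results below was not tested. Differences are therefore given with 4 arrays and with 3, without scramble control replicate 1. The 3-array fit takes its spread from the siKLF7 pair and, for the most part, from the genes as a whole, and assumes that the lone control varies alike. Whether samples of a group were grown separately is not said in the labels. The spread behind a p-value here, among arrays and over the genes as a whole, may therefore be technical. In bulk RNA, fewer cells of a type and less RNA per cell cannot be told apart.

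KLF7 itself was measured first. Its level was 12.19 and 11.52 after the scramble pool and 10.56 and 10.15 after siKLF7, so both siKLF7 arrays lay below both controls. With 3 arrays it fell by 1.16 (SE 0.13, limma adjusted p = 1.2e-09), to 44.8% of scramble control replicate 2. With 4 arrays the difference was -1.50 (SE 0.28, limma adjusted p = 0.639). By exact permutation (two-sided) p was 0.333, which 2 against 2 arrays cannot go below.

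None of the 47 Wnt genes passed the test in either fit. With 4 arrays, 0 of 47 had a limma adjusted p under 0.05, against a background of 0% of all genes, and 2 of 47 (WNT2 and LGR6) had an unadjusted p under 0.05, against 5.8% of all genes. With 3 arrays, 0 of 47 passed in either direction, while 0.885% of all genes rose and 0.69% fell. At an unadjusted p under 0.05 with 3 arrays there were 9 of 47, or 19.1%, against 11.3% of all genes. These were DKK1, WNT3A and FZD7 on the low side and FZD5, DKK4, SFRP1, LGR4, WNT7A and FZD3 on the high side, named here after their values were seen. The difference from scramble control replicate 2 ranged from -0.50 (DKK1) to 0.43 (FZD5), so all 47 stood within 1.5-fold of that control, as did 18199 of the 18417 genes. The 95% interval lay within 2-fold for 47 of 47 with 3 arrays, as it did for 18293 of the 18417 genes. With 4 arrays it lay within 2-fold for 42 of 47, beside 16297 of the 18417 genes. The 5 genes with a wider interval in the 4-array fit were DKK1, DKK2, DKK4, WNT5A and RNF43. The median over the 47 was -0.09 with 4 arrays and -0.02 with 3 arrays, beside -0.05 and -0.04 for all genes.

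The sizes of the differences were close to those of genes at large. The median size with 3 arrays was 0.14 in the 47 genes and 0.14 in all genes, and the median gap between the siKLF7 arrays was 0.13 and 0.12. Both siKLF7 arrays lay above scramble control replicate 2 for 14 of 47 genes (29.8%, background 29.7%) and below it for 21 (44.7%, background 44.6%). Against both controls, 5 of 47 were above in both siKLF7 arrays (background 16.3%) and 13 were below (background 28.9%), which made 18 of 47 apart in either direction, or 38.3%, against 45.2% of all genes. Those above were WNT4, WNT10B, FZD6, SFRP1 and DKK4. Those below were WNT2, WNT3A, WNT5B, WNT9A, WNT9B, WNT11, FZD2, FZD4, FZD9, FZD10, LGR6, RNF43 and ZNRF3. Between the siKLF7 arrays 0 of 47 were 2-fold apart (background 0.076%), and the widest gap was 0.40 (SFRP5).

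**Figure D1:**
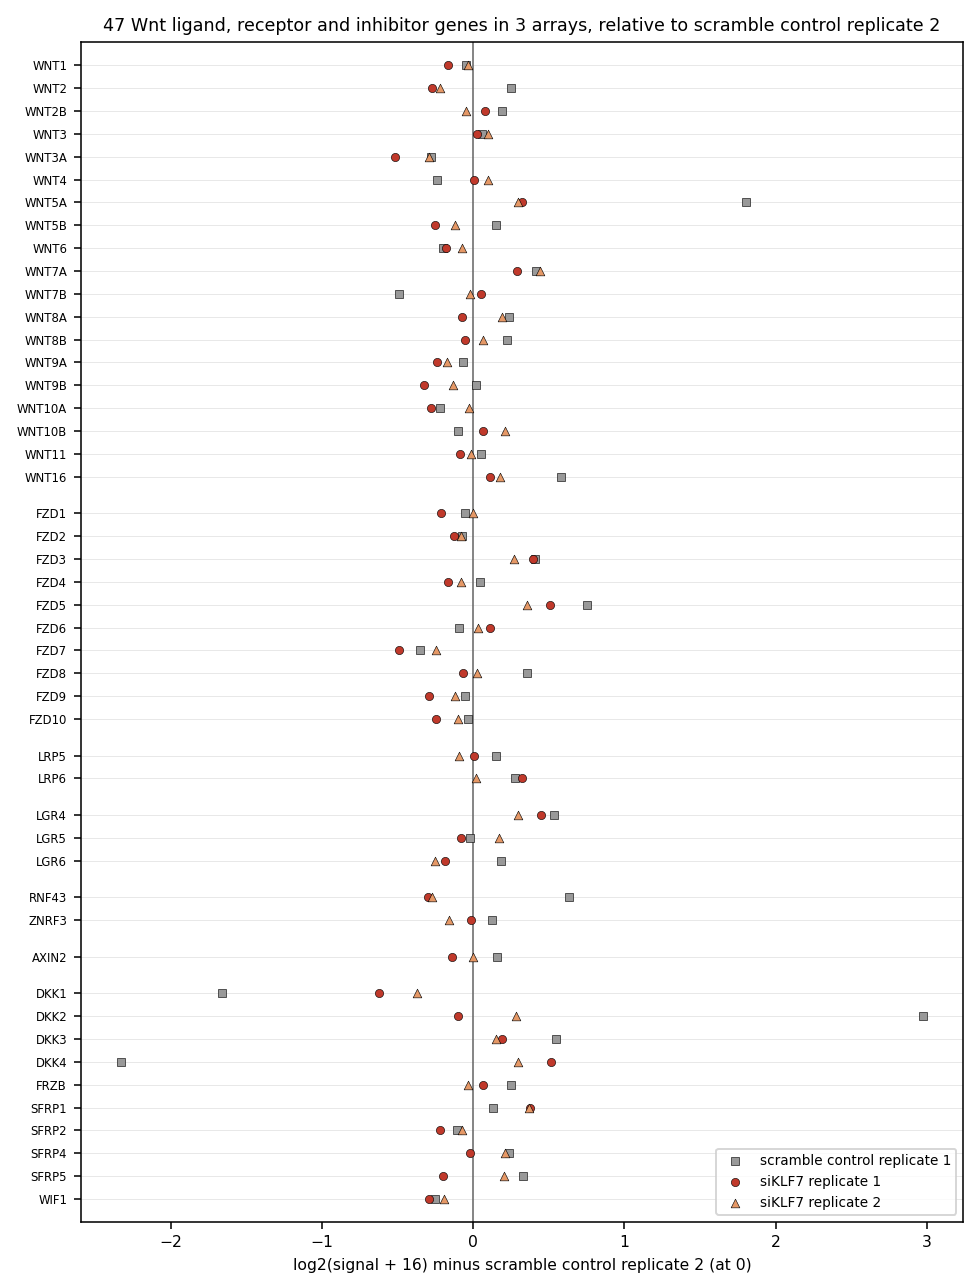
Level of each of the 47 genes in scramble control replicate 1 (grey squares) and the siKLF7 arrays (circles, triangles), as log2(signal + 16) minus the value in scramble control replicate 2, which sits at 0. Most points lie within 0.5 of 0, and the grey squares of DKK2, WNT5A, DKK1 and DKK4 lie farthest out, at 2.98, 1.80, -1.66 and -2.33.

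**Figure D2:**
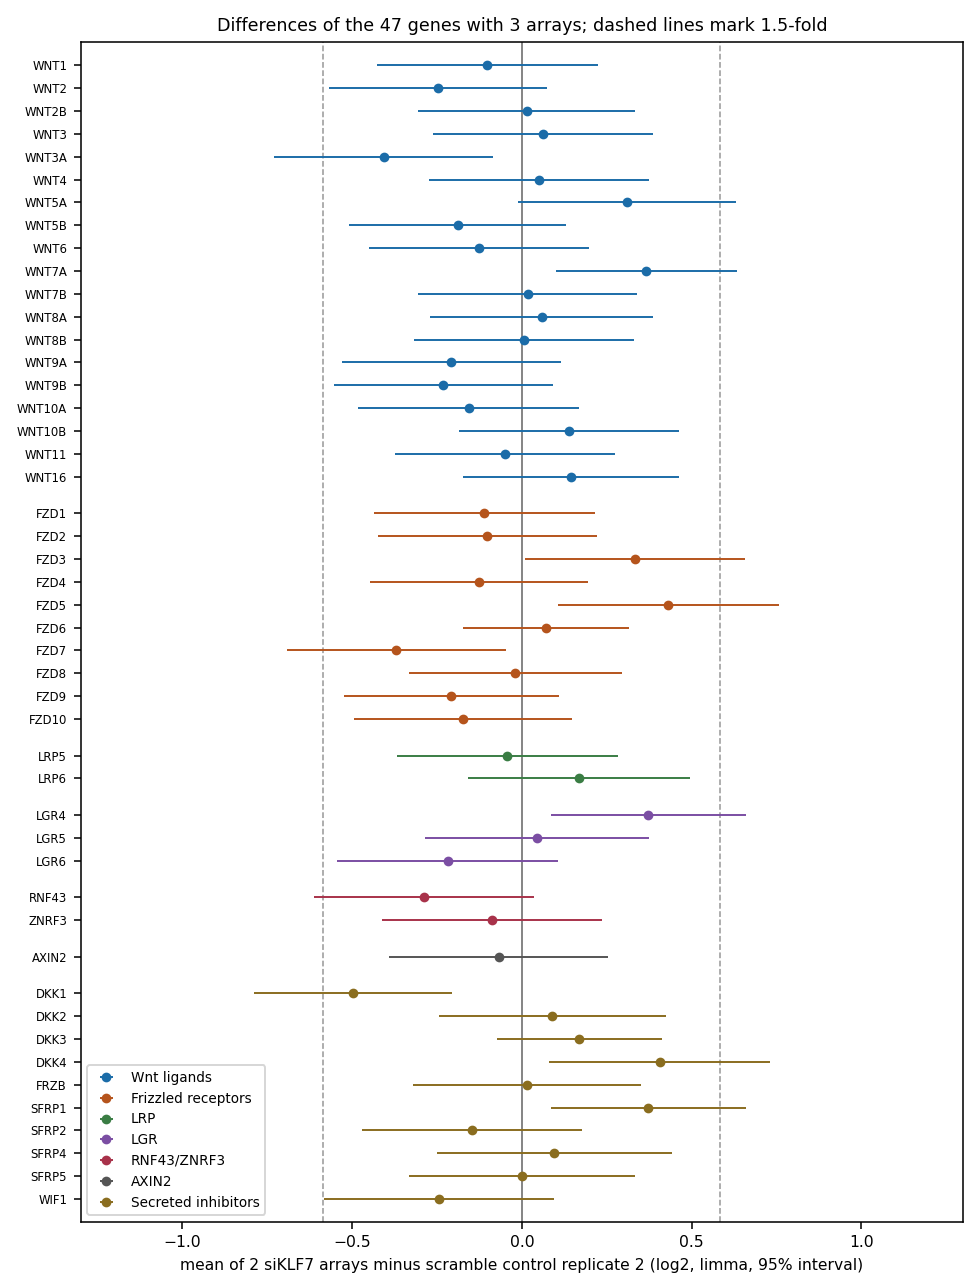
Mean of the 2 siKLF7 arrays minus scramble control replicate 2 (log2) for each gene, with the 95% interval of the 3-array limma fit and dashed lines at 1.5-fold. All 47 estimates lie inside the dashed lines, from -0.50 for DKK1 to 0.43 for FZD5, and 9 intervals leave out 0.

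The stretches upstream of 3 genes are shown, chosen after their values were seen. WNT5A and DKK1 changed sign with the control array, as did DKK2 and other members that are not shown. RNF43 was the member below both controls by the widest margin. KLF proteins bind CACCC and GC-rich boxes, and the capitals mark CACCC, or GGGTG where the box is on the other strand. The sequences are the 250 bases before the RefSeq start in build GRCh38.p14, 5′ to 3′ on the strand of the gene, for DKK1 at chr10:52314031-52314280 (plus strand), RNF43 at chr17:58417535-58417784 (minus strand) and WNT5A at chr3:55487307-55487556 (minus strand). For RNF43 and WNT5A, with 2 listed starts each, the start farthest upstream is shown.
DKK1: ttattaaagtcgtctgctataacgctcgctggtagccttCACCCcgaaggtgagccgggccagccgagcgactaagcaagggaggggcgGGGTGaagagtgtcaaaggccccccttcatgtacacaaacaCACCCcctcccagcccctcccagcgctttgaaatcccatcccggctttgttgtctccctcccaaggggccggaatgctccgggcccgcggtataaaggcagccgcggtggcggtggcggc
RNF43: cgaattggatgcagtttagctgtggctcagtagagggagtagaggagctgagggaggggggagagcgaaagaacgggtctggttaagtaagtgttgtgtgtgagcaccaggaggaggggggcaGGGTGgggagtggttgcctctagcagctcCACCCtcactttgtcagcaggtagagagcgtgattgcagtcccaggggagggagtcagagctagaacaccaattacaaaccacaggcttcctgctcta
WNT5A: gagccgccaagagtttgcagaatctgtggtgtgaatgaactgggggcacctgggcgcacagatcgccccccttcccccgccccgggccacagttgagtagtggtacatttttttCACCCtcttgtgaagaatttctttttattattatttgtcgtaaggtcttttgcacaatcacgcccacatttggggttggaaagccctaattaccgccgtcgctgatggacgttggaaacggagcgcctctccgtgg
The box occurred 3 times before DKK1, 2 times before RNF43 and 1 time before WNT5A. RefSeq starts were matched for 31 of the 47 genes, 37 starts in all, and 26 of these (70.3%) held CACCC on either strand in the same window, against 54.7% of all 35116 listed starts. GGGCGG, or CCGCCC on the other strand, stood before 26 of 37 (70.3%, against 42.6%). The windows of the 37 starts had a median GC content of 65.2%, against 58.0% for all starts. CTTTGA, a core of TCF and LEF binding motifs (TCAAAG on the other strand), stood before 1 of 37 starts, that of DKK1, which held it 2 times, against 11.2% of all starts. Each motif was searched on its own, so matches of CACCC and GGGCGG may share bases. These matches describe the letters in the window and were not tested as binding sites.

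Of the 19 ligands, 2 (10.5%) were above and 6 (31.6%) below the controls without overlap, against 16.3% and 28.9% of all genes, and the differences ran from -0.41 to 0.37 with 3 arrays. WNT5A, a ligand best known for beta-catenin-independent signalling, stood at 9.32 and 7.52 in control and 7.85 and 7.82 in siKLF7 arrays. Scramble control replicate 1 was the high array, 3.02-fold above the mean of the other 3, and the groups overlapped. With 4 arrays WNT5A differed by -0.59 (SE 0.60, adjusted p = 0.704), and with 3 arrays by 0.31 (SE 0.16, adjusted p = 0.469), with the opposite sign.

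WNT7A, which is linked to corneal epithelial identity, was at 10.73 and 10.32 in control and 10.61 and 10.76 in siKLF7 arrays. The low array was scramble control replicate 2, and its difference was 0.37 with 3 arrays (SE 0.13, adjusted p = 0.202) and 0.16 with 4 (SE 0.19). WNT7B, its close relative, was at 7.55 and 8.04 in control and 8.09 and 8.02 in siKLF7 arrays, so that scramble control replicate 1 alone was low, with a difference of 0.02 with 3 arrays (SE 0.16) and 0.26 with 4 (SE 0.20). WNT3A, a strong activator of beta-catenin signalling, stood at 7.69 and 7.97 in control and 7.45 and 7.67 in siKLF7 arrays, with a difference of -0.41 with 3 arrays (SE 0.16, adjusted p = 0.267) and -0.27 with 4 (SE 0.16). Both siKLF7 values were below both controls, but siKLF7 replicate 2 was only just so. WNT2 was at 7.10 and 6.85 in control and 6.57 and 6.62 in siKLF7 arrays, which did not overlap, with a difference of -0.37 with 4 arrays (SE 0.13, adjusted p = 0.639) and -0.25 with 3 (SE 0.16).

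The remaining 14 ligands were WNT1, WNT2B, WNT3, WNT4, WNT5B, WNT6, WNT8A, WNT8B, WNT9A, WNT9B, WNT10A, WNT10B, WNT11 and WNT16. Their 3-array differences spanned -0.23 (WNT9B) to 0.14 (WNT16), and their 4-array differences -0.27 (WNT5B) to 0.19 (WNT10B). For WNT16 the sign turned, with -0.15 in the 4-array fit, as it did at smaller sizes for WNT2B, WNT8A and WNT8B. WNT16 was the member of this group with the widest control gap, 7.72 against 7.14, and its siKLF7 arrays stood between them at 7.25 and 7.31. WNT4, WNT10B and WNT7B were the ligands with a 4-array difference above 0.17, at 0.17, 0.19 and 0.26. Dim signal limits this class: 15 of 19 ligands were in the dimmer 50% of genes on the array.

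The 10 Frizzled genes, which encode the ligand-binding receptors, differed by -0.37 to 0.43 with 3 arrays and by -0.20 to 0.13 with 4. FZD5 was at 9.01 and 8.25 in control and 8.76 and 8.61 in siKLF7 arrays, between the controls. Its difference was 0.43 with 3 arrays (SE 0.16, adjusted p = 0.224) and 0.06 with 4 (SE 0.28). FZD3, a receptor of the polarity branch, was at 8.53 and 8.12 in control and 8.52 and 8.39 in siKLF7 arrays, again between the controls, and differed by 0.33 with 3 arrays (SE 0.16) and 0.13 with 4 (SE 0.18). FZD7 was at 7.04 and 7.40 in control and 6.91 and 7.15 in siKLF7 arrays, with a difference of -0.37 with 3 arrays (SE 0.16, adjusted p = 0.342) and -0.19 with 4 (SE 0.18), and the groups overlapped. FZD6, also a receptor of the polarity branch, was at 10.82 and 10.91 in control and 11.02 and 10.95 in siKLF7 arrays, with a 3-array difference of 0.07 (95% interval -0.17 to 0.31) and a 4-array difference of 0.12 (95% interval -0.21 to 0.44). The other 6, FZD1, FZD2, FZD4, FZD8, FZD9 and FZD10, differed by -0.21 to -0.02 with 3 arrays and by -0.20 to -0.07 with 4. No Frizzled gene was 2-fold apart between scramble control replicate 1 and the other arrays, where the range was -0.14 to 0.46.

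The co-receptor genes differed little. LRP5 stood at 8.67 and 8.52 in control and 8.53 and 8.43 in siKLF7 arrays, a difference of -0.04 with 3 arrays (SE 0.16, 95% interval -0.37 to 0.28) and -0.12 with 4 (SE 0.13). LRP6 stood at 9.15 and 8.87 in control and 9.19 and 8.89 in siKLF7 arrays, a difference of 0.17 with 3 arrays (SE 0.16, 95% interval -0.16 to 0.50) and 0.03 with 4 (SE 0.18). In LRP6 each group held a high and a low array, and the groups overlapped fully.

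Of the R-spondin receptor genes, LGR4 was at 10.43 and 9.89 in control and 10.34 and 10.19 in siKLF7 arrays, between the controls. Its 3-array difference was 0.37 (SE 0.14, adjusted p = 0.248) and its 4-array difference 0.10 (SE 0.22). LGR6 was at 6.69 and 6.50 in control and 6.31 and 6.25 in siKLF7 arrays, which did not overlap, and differed by -0.31 with 4 arrays (SE 0.12, adjusted p = 0.639) and -0.22 with 3 (SE 0.16, adjusted p = 0.638). LGR5, a stem cell marker of other epithelia, was between 6.06 and 6.31 in all 4 arrays. LGR5 and LGR6 were in the dimmest 25% of genes.

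The ubiquitin ligase genes RNF43 and ZNRF3, which are feedback inhibitors and in many epithelia Wnt targets themselves, were both lower in each siKLF7 array than in either control, as were 28.9% of all genes. RNF43 stood at 9.28 and 8.65 in control and 8.35 and 8.38 in siKLF7 arrays, with scramble control replicate 1 as the high array. The difference was -0.60 with 4 arrays (SE 0.24, adjusted p = 0.639) and -0.29 with 3 (SE 0.16, adjusted p = 0.518). Of the 47, RNF43 and DKK4 had groups that did not overlap and a 4-array difference of at least 1.5-fold, which held for 1.31% of all genes on the low side and 1.85% on the high side. ZNRF3 stood at 8.56 and 8.43 in control and 8.42 and 8.27 in siKLF7 arrays, so close that siKLF7 replicate 1 and scramble control replicate 2 differed by 0.02, and its difference was -0.09 with 3 arrays (SE 0.16) and -0.15 with 4 (SE 0.13). AXIN2, a scaffold of the destruction complex and the most widely used readout of beta-catenin signalling, stood at 6.94 and 6.78 in control and 6.65 and 6.79 in siKLF7 arrays. The groups overlapped, and the difference was -0.15 with 4 arrays (SE 0.12, 95% interval -0.47 to 0.17) and -0.07 with 3 (SE 0.16, 95% interval -0.39 to 0.25). Its signals, 84.2 to 107, placed it in the dimmest 25% of genes.

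The secreted inhibitors held 3 of the 4 genes that were 2-fold apart in scramble control replicate 1. DKK1, an inhibitor that binds LRP5 and LRP6 and a known Wnt target, stood at 8.76 and 10.42 in control and 9.80 and 10.05 in siKLF7 arrays, or signals of 418, 1358, 877 and 1045. Both siKLF7 arrays lay between the controls. With 3 arrays DKK1 differed by -0.50 (SE 0.15, 95% interval -0.79 to -0.21, adjusted p = 0.065), a 1.41-fold lower level that missed the threshold, with siKLF7 replicate 1 at -0.62 and siKLF7 replicate 2 at -0.37 from scramble control replicate 2. The 3-array call was sensitive to the fit: among 10 settings at the same threshold, including the one above, 5 called DKK1 lower, with adjusted p from 0.0080 to 0.183. With 4 arrays the difference was 0.33 (SE 0.57, adjusted p = 0.818), with the opposite sign.

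DKK4, an inhibitor of the same family, stood at 5.54 and 7.87 in control and 8.39 and 8.17 in siKLF7 arrays, or signals of 30.5, 218, 319 and 271. Both siKLF7 arrays lay above both controls, and scramble control replicate 1 was 6.07-fold below the mean of the other 3. The difference was 1.57 with 4 arrays (SE 0.78, adjusted p = 0.639) and 0.41 with 3 (SE 0.16, adjusted p = 0.275). DKK2 stood at 9.22 and 6.24 in control and 6.14 and 6.52 in siKLF7 arrays, or signals of 580, 59.8, 54.6 and 76.0. Its 3-array difference therefore compares dim signals. Scramble control replicate 1 was 7.55-fold above the mean of the other 3, the widest such gap among the 47, and the siKLF7 arrays lay on either side of scramble control replicate 2. The difference was -1.40 with 4 arrays (SE 0.99, adjusted p = 0.644) and 0.09 with 3 (SE 0.17, adjusted p = 0.867). DKK3, a divergent member of the family, was read by 2 features. The brighter stood at 11.43 and 10.88 in control and 11.07 and 11.03 in siKLF7 arrays, and the dimmer at 5.94 and 5.94 against 6.07 and 6.01. By the brighter feature DKK3 differed by 0.17 with 3 arrays (SE 0.12) and -0.10 with 4 (SE 0.21), with the sign turned.

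SFRP1, a Frizzled-like decoy that binds ligands, stood at 9.98 and 9.85 in control and 10.23 and 10.22 in siKLF7 arrays, which lay above both controls with a gap of 0.01 between them. It differed by 0.31 with 4 arrays (SE 0.13, adjusted p = 0.639) and by 0.37 with 3 (SE 0.14, adjusted p = 0.248), so leaving out scramble control replicate 1 moved its difference by less than its SE. SFRP2, SFRP4, SFRP5, FRZB and WIF1 differed by -0.24 (WIF1) to 0.10 (SFRP4) with 3 arrays and by -0.16 (SFRP5) to -0.02 (SFRP4) with 4, and all 5 overlapped between groups. SFRP4, FRZB and WIF1 were in the dimmest 25% of genes.

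**Figure D3:**
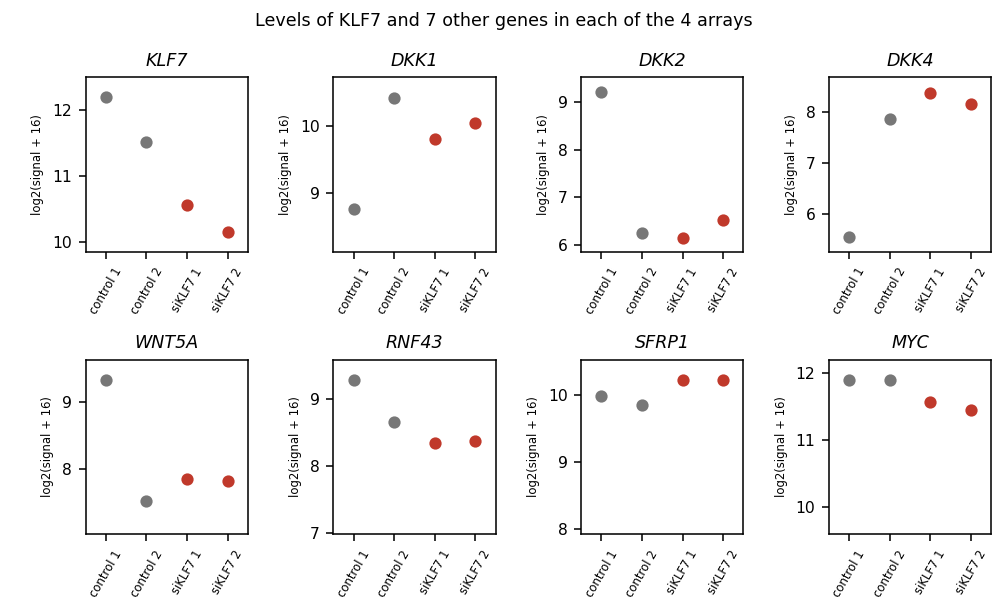
Level, as log2(signal + 16), of KLF7, DKK1, DKK2, DKK4, WNT5A, RNF43, SFRP1 and MYC in each array, with scramble control in grey and siKLF7 in red. Each panel has its own vertical range. For DKK1, DKK2, DKK4 and WNT5A scramble control replicate 1 is the array farthest from the others, while for MYC both controls lie at 11.89.

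The count of Wnt genes that differed depended on which control was used. Against scramble control replicate 1 alone, with scramble control replicate 2 left out, 3 of 47 were called higher in siKLF7 arrays (background 13.4%) and 6 lower (background 13.4%). The higher were DKK4 by 2.74, DKK1 by 1.16 and WNT7B by 0.51, and the lower were DKK2 by -2.89, WNT5A by -1.49, RNF43 by -0.92, WNT2 by -0.50, WNT16 by -0.44 and DKK3 by -0.38. Against scramble control replicate 2 alone the same genes stood at 0.41, -0.50, 0.02, 0.09, 0.31, -0.29, -0.25, 0.14 and 0.17. Scramble control replicate 1 was at least 2-fold below the mean of the other arrays for 2 of 47 (DKK1 and DKK4, background 2.99%) and at least 2-fold above for 2 (WNT5A and DKK2, background 2.11%).

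**Figure D4:**
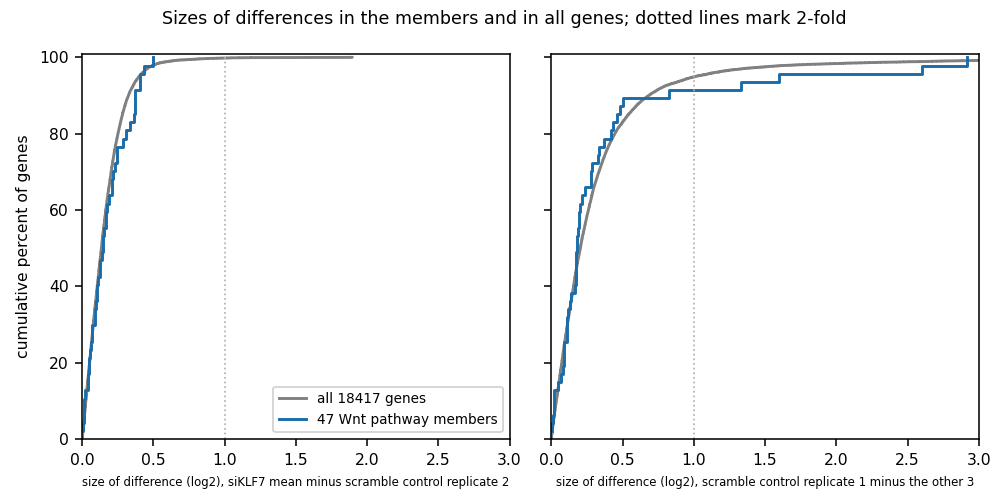
Cumulative percent of genes by size of difference (log2) for the 47 Wnt genes (blue) and all 18417 genes (grey), for the siKLF7 mean minus scramble control replicate 2 (left) and for scramble control replicate 1 minus the mean of the other 3 (right). On the left the blue line ends at 0.50; on the right 4 of the 47 genes lie beyond the dotted line at 2-fold, and the axis ends at 3, short of the most distant genes of the array.

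The rest of the pathway was followed through 7 lists of 118 genes, of which 113 were measured. With 4 arrays 0 of 113 passed, and with 3 arrays 1 rose and 1 fell (backgrounds 0.885% and 0.69%). Both siKLF7 arrays lay above both controls for 16 of 113 and below for 32 (backgrounds 16.3% and 28.9%). The median over the 113 was -0.04 with 4 arrays and -0.03 with 3.

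Of 21 measured TCF and LEF target genes, MYC, the growth-promoting transcription factor, fell with 3 arrays (background 0.69%) and 0 rose (background 0.885%). MYC stood at 11.89 and 11.89 in control and 11.57 and 11.45 in siKLF7 arrays. The controls differed by 0.01, and both siKLF7 arrays lay below them. The fall was by 0.39 with 3 arrays (SE 0.10, adjusted p = 0.030), and the difference was -0.38 with 4 arrays (SE 0.11, adjusted p = 0.639). MYC answers to many pathways besides Wnt. CCND1, the G1 cyclin on the same list, stood at 0.22 with 3 arrays (SE 0.12) and 0.01 with 4. VEGFA stood at -0.27 (SE 0.11) and 0.07, and APCDD1, a membrane inhibitor and target, at 0.30 (SE 0.16) and 0.67. For APCDD1, scramble control replicate 1 stood at -0.94 from the mean of the other arrays. The list median was -0.01 with 3 arrays and 0.01 with 4.

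Of 23 genes of the polarity and calcium branches, 1 rose with 3 arrays and 0 fell (backgrounds 0.885% and 0.69%). The list median was 0.05 with 3 arrays and 0.07 with 4. The genes named here from this list did not pass. PLCB4, a phospholipase C, stood at 0.56 with 3 arrays (SE 0.16, adjusted p = 0.061) and 0.15 with 4. PRICKLE2 and PRICKLE1, cytoplasmic polarity proteins, stood at 0.46 (SE 0.16) and 0.34 (SE 0.16) with 3 arrays and at 0.39 and 0.79 with 4. For PRICKLE1, scramble control replicate 1 stood at -1.13 from the mean of the other arrays.

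In the other 5 lists 0 genes passed in either fit. Among 27 cytoplasmic transducers, the ubiquitin ligase subunit gene FBXW11 stood at -0.43 with 3 arrays (SE 0.14) and -0.52 with 4, AMER1, a partner of APC, at -0.46 (SE 0.16) and -0.29, the GSK3-binding gene FRAT2 at -0.37 (SE 0.16) and 0.02, and CTNNB1, which encodes beta-catenin, at 0.16 (SE 0.08) and -0.05. Among 18 nuclear factors, PYGO1, a co-factor of beta-catenin, stood at 0.31 (SE 0.16) and -0.40, with scramble control replicate 1 at 1.21 above the other arrays. The co-repressor genes TLE2 and TLE3 stood at -0.28 and -0.16 with 3 arrays and -0.20 and -0.08 with 4, and CHD8 at -0.15 and -0.34. Among 6 genes of ligand processing and agonists, WLS, which carries Wnt proteins to the cell surface, stood at 0.36 (SE 0.15) with 3 arrays and 0.09 with 4, and the R-spondin genes RSPO4, RSPO3 and RSPO2 stood at -0.27, -0.12 and -0.13 with 3 arrays and -0.23, -0.09 and -0.18 with 4. Among 12 other receptors, the receptor kinase gene ROR2 stood at -0.25 with 3 arrays and -0.17 with 4, the glypican gene GPC3 at 0.24 and 0.29, and the DKK co-receptor gene KREMEN1 at 0.22 and 0.29. GPC6, another glypican gene, stood at 0.23 with 3 arrays and -0.26 with 4, with scramble control replicate 1 at 0.82 above the other arrays. Among 10 other inhibitors, the 3-array differences were -0.47 for CER1 (SE 0.17; -0.53 with 4 arrays), 0.30 for APCDD1, -0.29 for SOSTDC1 (-0.16 with 4) and -0.25 for NOTUM, a Wnt deacylase (-0.22 with 4).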

How the data were processed

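RNA of 2 scramble control and 2 siKLF7 samples was read on 1 array each. The authors deposited intensity values on a linear scale, for which the submitters' processing notes list Affymetrix Expression Console 1.1.1 and PLIER 2.0. No source used here gives a normalization between arrays. The deposited table held 33297 features, of which 19460 had 1 gene symbol in the platform annotation, 1754 had several and 12083 none. The feature with the highest mean log2 value stood for a gene. Values were analysed as log2(signal + 16), with no filter. All 18417 genes entered limma 3.58.1 (lmFit, eBayes with a trend on intensity; R 4.3.3), and p-values were adjusted by Benjamini-Hochberg over all of them, with a threshold of 0.05. The fits had 2 and 1 residual degrees of freedom with 4 and 3 arrays, and 2.63 and 74.2 prior degrees of freedom taken from the genes as a whole. The SEs, intervals and p-values with 3 arrays therefore rest mostly on the spread pooled over genes. With so few arrays, their number limits the precision. Members and lists were chosen with earlier results of these data known.

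Values of all 4 arrays were printed for Wnt genes called in either fit, for those apart between groups by at least 1.5-fold, for those 2-fold apart in scramble control replicate 1, and for LRP5, LRP6, AXIN2, RNF43 and ZNRF3. From each pathway list up to 4 genes were named by 3-array p, and 1 gene of the polarity list is not reported here. Other genes with printed values were chosen after these were seen. The marker lists for corneal endothelium, melanocytes, vascular endothelium and leukocytes had 3-array medians of -0.12, -0.03, -0.17 and -0.0023. Of their genes KIT, a melanocyte marker, rose with 3 arrays and 0 fell (backgrounds 0.885% and 0.69%). Promoter sequences and gene starts were taken from RefSeq. Other settings tried were quantile normalization or median centring, no dim genes, no trend or a robust prior, averaged features per gene, pseudocounts of 1 and 32, a threshold of 0.10, a replicate block, and the fit without each array in turn. Plots used matplotlib 3.10.9.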

Additional observations from a re-analysis of the deposited data

How the results depend on the processing

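The 2 arrays per group and the distance between the controls limit these results. Leaving out each array in turn gave 0 to 4935 genes called with 4 arrays as the base, 0 to 9 Wnt genes called, a Wnt median of -0.15 to -0.019 and a KLF7 difference of -1.83 to -1.16. The call of KLF7 was made without either control (adjusted p = 1.2e-09 and 4.95e-23). The same settings gave -0.50 to 1.16 for DKK1, -2.89 to 0.090 for DKK2, -1.49 to 0.31 for WNT5A and -0.12 to 0.18 for LRP6, whose signs changed. Without the dimmest 50% of genes, which left 19 Wnt genes, the 4-array median was -0.028 (0.01 over all genes kept) and 6 (31.6%) did not overlap between groups, against 42.1% of all genes kept and 18 of 47 with no filter. With 3 arrays, 290 genes were called, 478 with quantile normalization and 172 without an intensity trend. The count of Wnt genes called was 1, DKK1, with quantile normalization (-0.53, adjusted p = 0.0080), median centring, a robust prior, a threshold of 0.10, or without the dimmest 25% or 50% of genes, and 0 otherwise. AXIN2 stood at 0.0091 with 3 arrays and quantile normalization, with the sign turned. The replicate block gave 0 genes and 0 Wnt genes called. The gap between the controls and the gap between the siKLF7 arrays had a correlation of -0.04 across genes. Because the distance of scramble control replicate 1 fills the control gap, this value cannot show whether samples of the same number were paired. Leaving out another array from the 3-array fit leaves no residual degrees of freedom and was not run. Of the comparisons of a Wnt gene named by rule with an alternative, 120 with 4 arrays and 78 with 3 kept direction and side of the threshold, 5 and 1 changed sign, and 5 and 6 passed the threshold.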
